A study of Oryza sativa with 8 samples.

Results

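Chains of 4 or more OsChz1 peaks were examined in an anti-MYC ChIP-seq data set of rice (Oryza sativa). The chains were selected on peak positions alone. Neighboring peaks of the complemented line COM1 were chained where the gap between them, measured from the end of a peak to the start of the next, was under 5000 bp, and each chain that reached 4 peaks was kept. This gave 217 chains with 991 member peaks out of 11356 COM1 peaks, which is 8.73% of the list. The remaining peaks comprised 4171 in chains of 2 or 3 and 6194 single peaks. Because the rule used the spacing of the peaks, all values on number, length, coverage and place of the chains below are descriptions and were not tested.

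The study had 8 libraries in 4 groups of 2 replicates, made from whole seedlings at day 30, grown with 14 h of light at 30 °C and 10 h of darkness at 28 °C. COM1 (genotype label OsChz1-MYC/oschz1) carries the oschz1-1 mutation together with a transgene for OsChz1 fused to 4 copies of the MYC tag under the native OsChz1 promoter, and it is 1 transgenic line. The control was the oschz1-1 mutant (genotype label oschz1 mutant), a CRISPR/Cas9 allele with a small deletion in the coding sequence and no tagged protein. For both genotypes, an anti-MYC ChIP group and an input group without antibody were sequenced. The deposited data were 1 list of peaks for COM1, 1 list of 170 peaks for oschz1-1, and the authors' list of regions that were stronger in COM1 than in oschz1-1, called the Up list here. The study took this list, in which the oschz1-1 signal serves to remove background, as its set of OsChz1-occupied peaks, whereas the chains were built from all COM1 peaks. The lists give a chromosome, a start and an end on the MSU7 assembly and no signal, read number or replicate. No value below therefore has a replicate error. The study states the reads of each library, which were fewer in the oschz1-1 anti-MYC libraries than in those of COM1. How this affects the oschz1-1 peaks and the Up list was not tested. Peaks on the sequence ChrSy numbered 7, and none of them was a member.

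OsChz1 is the rice protein with a CHZ domain. Histone chaperones escort histones outside the nucleosome and hand them to, or take them from, DNA, and the yeast Chz1 is known for its preference for dimers that contain the histone variant H2A.Z. For OsChz1 the study reports binding to dimers with H2A and to dimers with H2A.Z in vitro, without a preference for H2A.Z. In plants, H2A.Z is found around the transcription start of many genes and over the bodies of genes with low transcription. A peak in such a list is a stretch in which sheared chromatin was recovered with the anti-MYC antibody more often than in the input. This can include background, since oschz1-1, which has no tagged protein, also gave peaks. A chain is therefore a stretch, 2156 to 30296 bp long here, with repeated recovery that was not called as 1 region.

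Most chains were small. Of the 217 chains, 141 (65.0%) had 4 peaks, 47 had 5, 19 had 6, 6 had 7 and 2 had 8. A single chain reached 9 peaks and another 11. The chains were 2156 to 30296 bp long, with a median of 7870 bp (interquartile range 5903 to 11077 bp), and 149 of them were under 10 kb. Their peaks covered a median of 23.6% of the chain (interquartile range 18.1 to 31.9%, range 7.76 to 62.9%). In total the chains occupied 1.86 Mb, or 0.5% of the summed span of the 12 chromosomes (372.7 Mb), and their peaks covered 0.430 Mb. The median length increased with the number of peaks, at 6866 bp for 4 peaks, 10065 bp for 5 and 11703 bp for 6, whereas the median coverage stayed between 22.3 and 25.1% for these sizes.

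Within the chains, 774 gaps separated neighboring members. The shortest was 202 bp, which is also the shortest gap of the whole COM1 list. The median was 1533 bp, the quartiles were 544 and 3028.8 bp, and 302 gaps (39.0%) were under 1 kb. In chains of 2 or 3 peaks, the median gap was 1623 bp and 36.1% of 2281 gaps were under 1 kb. Only 11 chains had all their gaps under 1 kb, and 61 had all of them under 2500 bp. At the limit of the rule, the widest gaps that still joined members were 4991, 4981 and 4977 bp, and the narrowest gaps that ended a chain were 5032, 5053 and 5061 bp. The gap to the next peak outside a chain had a median of 21347 bp over the 434 chain ends, and 96 of them (22.1%) were under 10 kb.

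The 10 chains with the most peaks are shown to scale in the plot of the largest chains. The largest, on chromosome 3 from 17459062 to 17489357, held 11 peaks over 30296 bp at a coverage of 22.8% and was also the longest chain. Its peaks were 342, 733, 992, 623, 508, 771, 784, 242, 793, 884 and 241 bp wide, and its gaps ran from 1147 to 4282 bp, so that none of its neighbors were under 1 kb apart. The third, sixth and seventh of these peaks were in the Up list and the other 8 were not. The chain of 9 peaks on chromosome 7, from 14491749 to 14502484, was more compact, with 10736 bp, a coverage of 38.2% and 6 of its 8 gaps under 1 kb. Among its peaks, which were 209 to 806 bp wide, the third and the last were in the Up list. Outside this chain the list was sparse, with the next peaks 264680 bp before and 91197 bp after it.

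**Figure D1:**
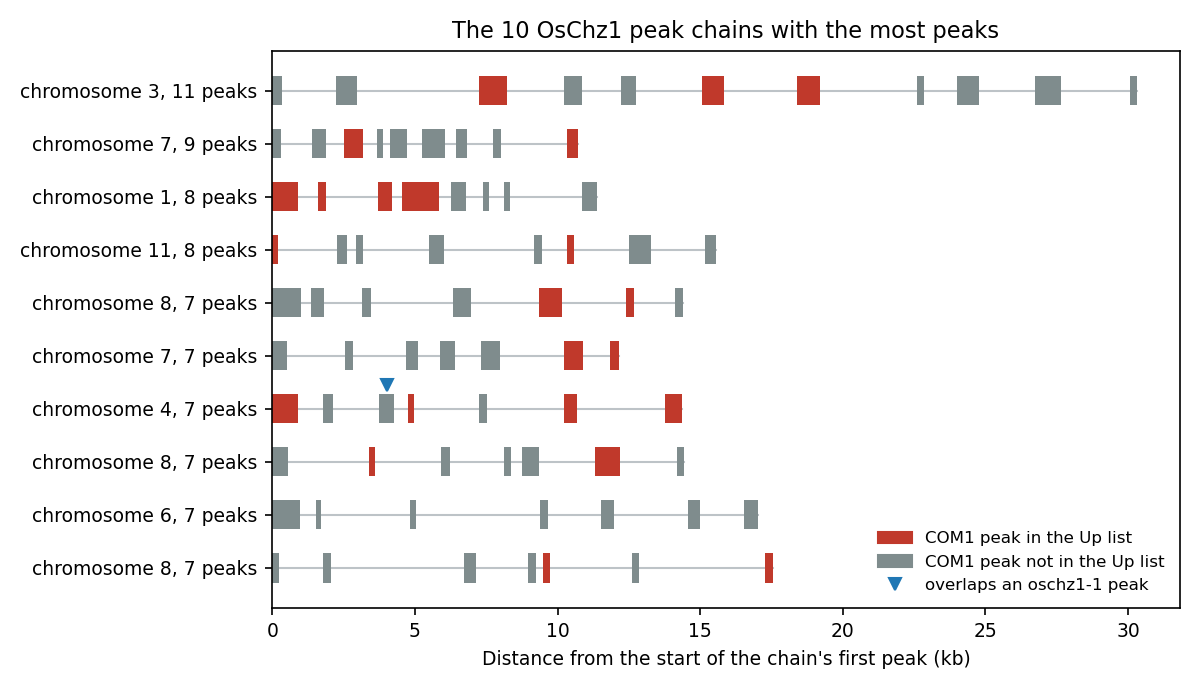
Peaks of the 10 chains with the most COM1 peaks, drawn to scale by the distance from the start of the first peak of the chain (kb), with peaks in the Up list in red, other peaks in gray and a triangle over a peak that overlaps an oschz1-1 peak. The chain of 11 peaks on chromosome 3 spans 30296 bp, and red and gray peaks occur together in 9 of the 10 chains.

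The chains of 8 peaks differed in how the Up list fell on them. On chromosome 1, from 3026932 to 3038331, the first 4 peaks (911, 283, 489 and 1280 bp wide) were in the Up list and the last 4 (525, 204, 213 and 551 bp) were not, so that the chain consisted of a block of each kind. The gap between both blocks was 414 bp, shorter than most gaps of this chain. On chromosome 11, from 25462007 to 25477546, the first and the sixth peak were in the Up list, each with neighbors outside it. The 6 chains of 7 peaks were located on chromosomes 4, 6, 7 and 8, of which chromosome 8 held 3. Among them, the chain on chromosome 4 from 20280582 to 20294960 had 4 peaks in the Up list. The chain on chromosome 6 from 2372962 to 2389991 had none, although its first peak was 964 bp wide, and each of the other 4 had 2.

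Coverage and length picked out other chains than the number of peaks did. The highest coverage, 62.9%, was found on chromosome 12 from 22603300 to 22606704, where peaks of 810, 383, 462 and 488 bp were separated by gaps of only 409, 418 and 435 bp, and only the last peak was in the Up list. A similar arrangement was seen on chromosome 4 from 22312532 to 22315888, with 57.0% coverage, gaps of 394, 546 and 505 bp and the last 3 of 4 peaks in the Up list. Coverage was 52.0% on chromosome 9 from 21781001 to 21784414, 51.1% on chromosome 7 from 23492444 to 23500148 and 50.8% on chromosome 5 from 12815048 to 12819025. These 5 chains all had 4 peaks. The longest chains after the one on chromosome 3 were those on chromosome 2 from 23700060 to 23720576 (20517 bp, 5 peaks), on chromosome 8 from 1625649 to 1643218 (17570 bp, 7 peaks), on chromosome 5 from 9147165 to 9164537 (17373 bp, 6 peaks) and on chromosome 9 from 22303006 to 22320349 (17344 bp, 5 peaks). Their coverage was between 11.6 and 19.4%.

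The chains were unevenly spread over the chromosomes. Chromosome 1 held 37 chains and chromosome 12 held 5, that is 0.856 and 0.182 chains per Mb, and chromosome 6 was close to chromosome 1 with 26 chains and 0.833 per Mb. As a share of the peaks of a chromosome, members made up 12.2% on chromosome 6, 11.7% on chromosome 1 and 10.9% on chromosome 5, against 4.62% on chromosome 2 and 3.25% on chromosome 12. Chromosome 2 had fewer chains (11) than chromosome 10 (15). It held 1040 peaks over a span of 35.9 Mb and chromosome 10 held 748 over 23.2 Mb, so that peaks were less dense on chromosome 2. The longest stretch without a chain was on chromosome 12, from 8439802 to 22603299. It measured 14.2 Mb and still held 385 COM1 peaks, or 27.2 per Mb. On chromosome 2, no chain was found in the first 9.56 Mb, which held 189 peaks (19.8 per Mb). The shortest such longest stretch, on chromosome 9, was 5.10 Mb.

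**Figure D2:**
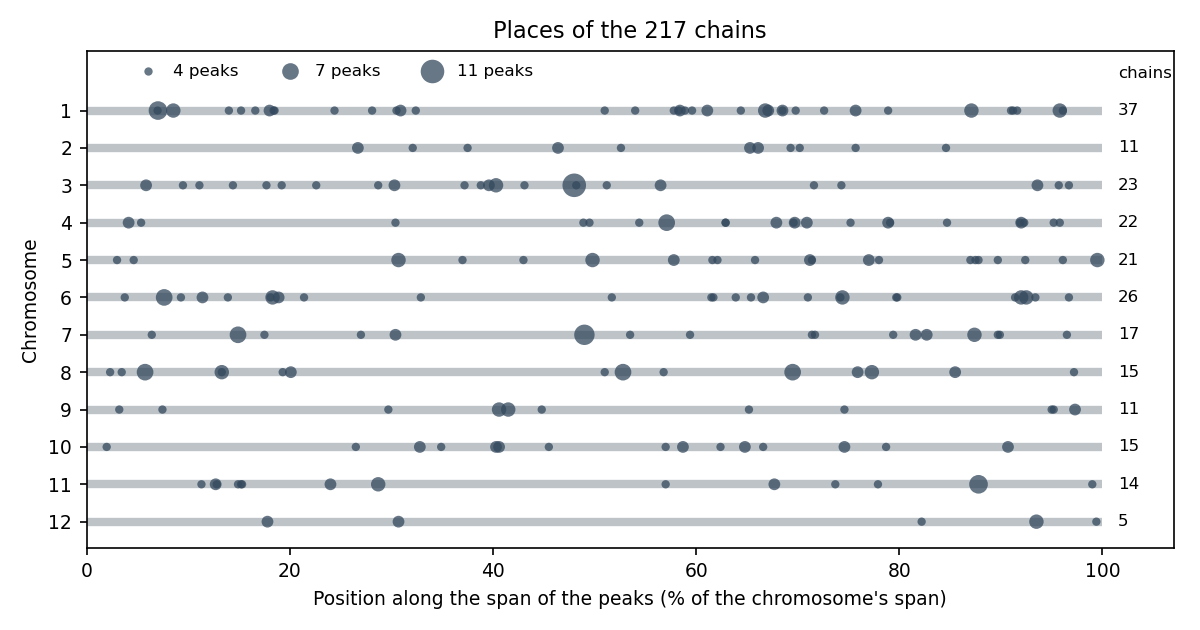
Places of the 217 chains along each of the 12 chromosomes, as a percentage of the span of the peaks, with the area of a point growing with the number of peaks in the chain and the number of chains on the right. Chromosome 1 has 37 chains and chromosome 12 has 5, and on chromosome 12 the middle of the span is empty.

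When each chromosome was divided into 10 segments of equal length, chains were found in every segment, from 12 chains between 20 and 30% of the span to 30 between 70 and 80% and another 30 between 90 and 100%. The share of peaks that were members ran from 4.93% between 20 and 30% of the span to 11.2% between 60 and 70%. Of 379 bins of 1 Mb, 158 held a chain, 115 of them a single one, 29 of them 2 and 14 of them 3 or more. The bins from 7 to 8 Mb and from 25 to 26 Mb on chromosome 1 held 4 chains each, with 17 of 39 and 17 of 44 COM1 peaks in them. In the 100 kb on either side of a chain, the density of other COM1 peaks had a median of 35 per Mb (interquartile range 25 to 50 per Mb), beside 30.5 per Mb in the whole list. These flanks include the gap that ends the chain, in which there is no peak by definition. The flank value is a median over chains that leaves out the chain's own peaks. The value of the list divides all its peaks by the summed span, so that these densities are not directly comparable.

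Members were wider than other COM1 peaks. Their median width was 369 bp (interquartile range 270 to 520.5 bp), against 313 bp (245 to 439 bp) for the other 10365 peaks. The 95% intervals of the medians, from the binomial distribution of order statistics, were 351 to 382 bp and 310 to 317 bp. They treat peaks as independent, although peaks of the same chain are not, so their separation does not serve as a test. The difference in width is a description and was not tested. Width increased stepwise with chain size, since the median was 324 bp in chains of 2 or 3 and 305 bp for single peaks. The members' median was the higher on all 12 chromosomes, and the smallest difference was on chromosome 3, with 340.5 bp for members and 315 bp for other peaks. The chromosomes share the same list and the same rule and are not replicates. Peaks of 800 bp or more made up 8.27% of the members (82 peaks), against 4.72% of the others (489 peaks). Since gaps were measured between borders, a wider peak leaves a shorter gap, and width was therefore not fully independent of the rule. With distances between midpoints, which a wider peak does not shorten, the median of the members was 362 bp. These were 872 peaks, all of them also members under the rule by gaps, since a midpoint distance exceeds the gap. The width of the other peaks under the midpoint rule is not given here, so this value does not separate width from the rule.

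**Figure D3:**
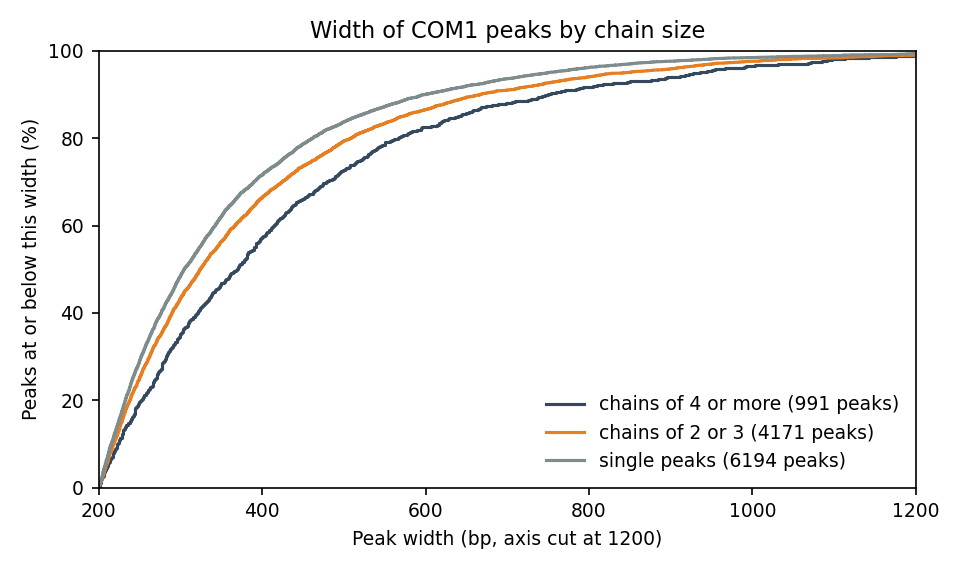
Cumulative share of COM1 peaks (%) by peak width (bp) for chains of 4 or more, chains of 2 or 3 and single peaks. The curve of the chains of 4 or more lies furthest to the right, with a median of 369 bp against 324 and 305 bp.

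Within a chain, widths varied widely. The widest peak of a chain had a median of 611 bp over the 217 chains, the narrowest one of 234 bp. The widest member of all, 1545 bp, opened the chain on chromosome 1 from 13359987 to 13367580, whose other peaks were 783, 230, 572 and 357 bp wide. Peaks at either end of a chain had a median width of 356.5 bp (95% interval 327 to 381 bp, 434 peaks), and inner peaks had one of 375 bp (355 to 396 bp, 557 peaks). These intervals overlap, and they also treat peaks as independent.

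To determine whether the peaks of a chain share presence in the Up list, each COM1 peak was assigned by an overlap of at least 1 bp with a region of that list. The Up list compares COM1 with oschz1-1, whereas the chains rest on the COM1 peaks, but both used the COM1 ChIP libraries. Of the 991 members, 412 were in the Up list, which is 41.6% (95% Wilson interval 38.5 to 44.7%), beside 42.8% of all 11356 COM1 peaks. The other 579 members were thus outside the set of occupied peaks. The share was 42.0% (40.5 to 43.5%) in chains of 2 or 3 and 43.6% (42.4 to 44.8%) among single peaks. The members as a whole were therefore near the background. Intervals here cover counting error over peaks only, and peaks of 1 chain are not independent of each other.

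By chain size, the shares lay on either side of the background. In chains of 4, 252 of 564 peaks (44.7%, 40.6 to 48.8%) were in the Up list, and in chains of 5 or more, 160 of 427 peaks were (37.5%, 33.0 to 42.2%), with overlapping intervals. In the 10 chains of 7 or more, 23 of 78 peaks were (29.5%, 20.5 to 40.4%). The shares did not follow the number of peaks steadily, since 45.6% of the peaks in chains of 6 were in the Up list against 36.2% in chains of 5. No difference between chain sizes was tested. Between chromosomes the members' share ran from 29.2% on chromosome 11 (19 of 65 peaks) to 58.2% on chromosome 10 (39 of 67 peaks). It lay above that of the other peaks of the chromosome on 5 of 12 chromosomes. The other peaks lay between 38.8% on chromosome 2 and 47.0% on chromosome 12, but these shares rest on 681 to 1255 peaks per chromosome and those of the members on 24 to 167, so that the spreads cannot be compared directly.

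Chains were grouped by whether their peaks were in the Up list. With 42.8% of all COM1 peaks in that list, groups of 4 or more peaks often hold both kinds whether or not their status is related, and the counts below are a description. A total of 185 chains (85.3%, 79.9 to 89.4%) were mixed, 23 (10.6%, 7.17 to 15.4%) had no peak in the Up list and 9 (4.15%, 2.20 to 7.69%) had all their peaks in it. Over the chains, the share of peaks in the Up list averaged 42.2% with an SD of 25.3% (n = 217 chains). Among the 141 chains of 4, the number of peaks in the Up list was 0 in 18, 1 in 36, 2 in 53, 3 in 26 and 4 in 8 chains. The plot of Up list peaks per chain shows the same for longer chains, of which only 1, with 5 peaks, was wholly in the Up list.

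**Figure D4:**
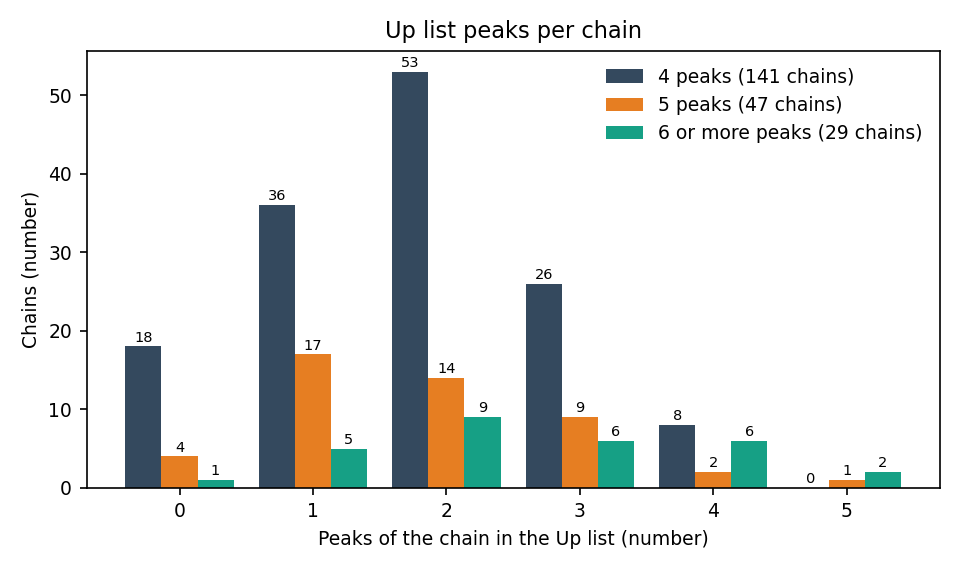
Number of chains by how many of their peaks were in the Up list, for chains of 4 peaks (141), of 5 peaks (47) and of 6 or more peaks (29). Chains of 4 are most often found with 2 peaks in the Up list (53 chains), and the ends of the distribution, with 18 and 8 chains, are small.

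The chain with all 5 peaks in the Up list was on chromosome 10 from 20990377 to 20998337, with peaks of 202, 967, 479, 293 and 441 bp. The chains of 4 that were wholly in the list and had the most peak bases were located on chromosome 8 from 14483261 to 14494418, on chromosome 6 from 24889136 to 24896463, on chromosome 10 from 6133633 to 6141311 and on chromosome 8 from 16130600 to 16144133. These 4 chains had peaks of 214 to 1528 bp and gaps of 249 to 4971 bp. In the same order, their widest peaks were 1528, 883, 1022 and 788 bp, beside a median of 611 bp for the widest peak over all chains. Since they were picked for peak bases, wide peaks are in part built into this choice. Among chains with no peak in the Up list, that of 7 peaks on chromosome 6 was the largest. The next were chains of 5 on chromosome 1 from 13359987 to 13367580, on chromosome 11 from 19631137 to 19642600, on chromosome 3 from 2124724 to 2132918 and on chromosome 3 from 20568021 to 20571947. The first of these contains the widest member of all, and the last had no peak above 441 bp.

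Neighboring members had the same Up status in 437 of 774 cases, which is 56.5% (52.9 to 59.9%). Both were in the Up list in 153 cases and neither was in 284. Neighbors in chains of 2 or 3 had the same status in 51.5% of 2281 cases (49.5 to 53.6%), and neighbors 5 to 50 kb apart in 52.2% of 5844 cases (50.9 to 53.5%). The difference between the chains and these neighbors was not tested, since the gaps of a chain share their peaks. Over all gaps the intervals of the members and of the chains of 2 or 3 overlapped, and under 1 kb they did not. The intervals treat neighbors as independent, so neither their overlap nor their separation serves as a test. Under 1 kb, 190 of 302 neighboring members had the same status (62.9%, 57.3 to 68.2%), against 437 of 824 neighbors in chains of 2 or 3 (53.0%, 49.6 to 56.4%). From 1000 to 2500 bp, the members gave 50.9% (44.4 to 57.4%) and the chains of 2 or 3 gave 48.3% (44.5 to 52.1%). From 2500 to 5000 bp, the values were 53.6% (47.4 to 59.7%) for members and 52.7% (49.2 to 56.1%) for the chains of 2 or 3. In these longer gap classes the intervals overlapped. When peaks within 1 kb were joined to 1 peak before chaining, the agreement in chains of 4 or more was 49.1% of 269 neighbors. A joined peak counted as in the Up list if any of its parts was. Neighbors under 1 kb are absent there by construction and the chains differ, so this value is not directly comparable with 56.5%.

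**Figure D5:**
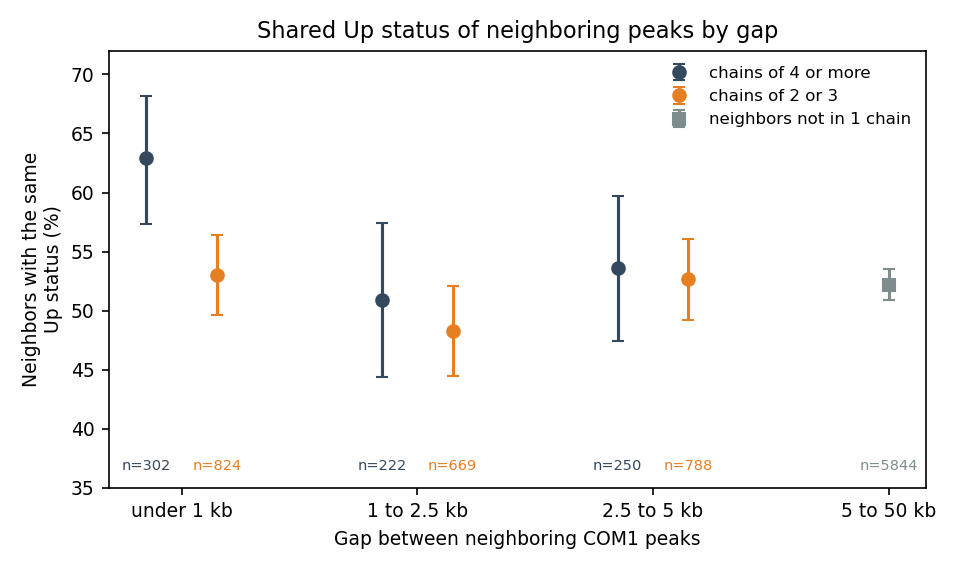
Share of neighboring COM1 peaks with the same Up status (%) by the gap between them, for chains of 4 or more, chains of 2 or 3 and neighbors that are in no common chain, with 95% Wilson intervals and the number of neighbors (n) below each point. Under 1 kb the chains of 4 or more are at 62.9% and the chains of 2 or 3 at 53.0%, and at longer gaps the intervals overlap. The intervals treat neighbors as independent, although gaps of a chain share peaks, and no difference was tested. The vertical axis starts at 35%.

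The agreement at gaps under 1 kb did not increase steadily with chain size. It was 54.2% (50 to 58.3%, n = 548) in chains of 2, 50.7% (44.9 to 56.6%, n = 276) in chains of 3, 65.5% (58.2 to 72.2%, n = 174) in chains of 4 and 59.4% (50.7 to 67.5%, n = 128) in chains of 5 or more. The intervals of chains of 4 and of 5 or more both overlapped that of chains of 2. Against chains of 3, the interval of chains of 5 or more overlapped and that of chains of 4 did not. In the chains of 4 or more, both peaks were in the Up list in 66 and neither was in 124 of the 302 neighbors under 1 kb. By chromosome, the agreement under 1 kb ran from 57.1% on chromosome 8 (12 of 21) to 78.9% on chromosome 11 (15 of 19). On chromosome 11 only 29.2% of the members were in the Up list, and a share far from 50% by itself raises the agreement. Over all gaps, direct neighbors were at 56.5% (52.9 to 59.9%). Members with 1 peak between them had the same status in 51.9% of 557 cases (47.7 to 56.0%), and members with 2 peaks between them in 54.1% of 340 cases (48.8 to 59.3%). These intervals overlap that of the direct neighbors. The longest run of successive members in the Up list was 1 peak in 94 chains, 2 in 66, 3 in 20, 4 in 11 and 5 in 3 chains. Besides the chain wholly in the list on chromosome 10, the runs of 5 were seen in chains of 6 on chromosome 9 from 9308183 to 9317628 and on chromosome 11 from 8309604 to 8320680, which were picked out for their runs after the values had been seen. When the Up list was chained on its own by the same rule, 17 chains with 71 regions were obtained. Since Up regions are almost all COM1 peaks with the same borders, such chains lie within COM1 chains by construction.

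Presence in the Up list was also compared by width. Of the 82 members of 800 bp or more, 46 were in the list (56.1%, 45.3 to 66.3%), and the share was 39.3 to 41.8% in the 4 width classes below, whose intervals reach up to 45.3 to 48.8% and so meet or overlap that of the widest class. Among the other COM1 peaks of 800 bp or more, 236 of 489 were (48.3%, 43.9 to 52.7%), and these intervals overlap. The widest peak of each chain was in the Up list in 106 of 217 chains (48.8%, 42.3 to 55.5%), and the remaining members in 306 of 774 cases (39.5%, 36.2 to 43.0%). These intervals overlap as well. No difference by width was tested, and overlap of intervals does not show that shares are equal. Each of the 4 narrower classes holds 189 to 267 members, so its interval is wider than that of all narrower members together. The share by place within the chain was similar, with 41.7% (37.2 to 46.4%) for peaks at either end and 41.5% (37.5 to 45.6%) for inner peaks.

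Background of the antibody at the chains was examined with the oschz1-1 peaks, which arise without the tagged protein. An oschz1-1 peak overlapped 14 of the 991 members, which is 1.41% (0.843 to 2.36%), beside 0.986% of all COM1 peaks and 98 of the other 10365 COM1 peaks (0.945%, 0.777 to 1.15%). The intervals of members and other peaks overlap. Under a stricter rule, with 50% or more of a member's length under the oschz1-1 peak, the share of members was 0.505%. The 14 members were found in 13 chains, and 12 of them were not in the Up list, beside 579 of all 991 members. Because the Up list holds regions stronger in COM1 than in oschz1-1, this count is in part built into the list. The same count for COM1 peaks outside the chains is not given here, so it is not read as a trait of the chains. The 14 members were wide, with a median of 609 bp, against 369 bp for all members. The same held outside the chains, where COM1 peaks with an oschz1-1 peak had a median of 509 bp, against 313 bp for all peaks outside the chains. A wide peak meets an overlap of 1 bp more easily, so that greater width is in part built into this choice of peaks. Of the 170 oschz1-1 peaks, 14 lay within the borders of a chain, 1 of them on no member. In the 13 chains, 20 of the 49 peaks without an oschz1-1 peak were in the Up list (40.8%), a share near the background.

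In 12 of the 13 chains, the oschz1-1 peak touched a single member. On chromosome 4 from 20280582 to 20294960, it overlapped the third of 7 peaks, 532 bp wide and not in the Up list, and the fourth peak, 489 bp further, was in the list. On chromosome 1 from 41385757 to 41396088 and on chromosome 5 from 29671903 to 29681220, it overlapped the last of 6 peaks, which was also the widest, at 1259 and 1094 bp. It overlapped the third of 6 peaks on chromosome 6 from 28739098 to 28747917, the third of 5 on chromosome 3 from 11030853 to 11040364 and the second of 5 on chromosome 5 from 22974633 to 22989229. In the chain on chromosome 7 from 23492444 to 23500148, it overlapped the second peak (1304 bp), which was not in the Up list, whereas the first (689 bp) and the last (1424 bp) were. On chromosome 8 from 14483261 to 14494418, the third peak (1528 bp) overlapped an oschz1-1 peak and was nevertheless in the Up list, as was the whole chain. The chain on chromosome 11 from 16542173 to 16545744, named after its values were seen, was the only one with 2 such members, which were its first peaks (281 and 303 bp). None of its 4 peaks were in the Up list.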

How the data were processed

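Anti-MYC ChIP-seq of COM1 and oschz1-1 was analysed from 3 lists of regions. Per the study's methods and the labels, the authors trimmed read pairs, aligned them to Nipponbare MSU7 with Bowtie2, removed pairs of low mapping quality and PCR duplicates with Samtools, and called peaks against input. MACS2 is named in the results text and the labels, SICER in the methods, which also state an intersection of replicates with ChIPpeakAnno and comparisons with DiffBind, without naming the comparison behind the Up list. The deposited columns hold positions only. Merging of close signal by the caller sets how a broad region is divided into peaks, and thereby chain size.

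Chains, overlaps and shares were obtained in Python (version 3.11.15) using pandas 2.3.3 and numpy 2.4.6, intervals using scipy 1.17.1 and figures using matplotlib 3.10.9. Overlap required 1 bp, starts are printed 1-based, and 95% Wilson intervals cover counting error only. The span of a chromosome ends at its last listed peak. The code was tested on simulated data. Named chains were the 10 with the most peaks, the 5 of highest coverage, the 5 longest, the 5 with the most peaks wholly in and wholly out of the Up list, and 8 with an oschz1-1 peak. Members, rules and lists were chosen with earlier results of these data known. No test was made, because the units are peaks and not replicates. Genes, GC content and motifs were not analysed here, since the gene table used here is on another assembly.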

Additional observations from a re-analysis of the deposited data

How the results depend on the processing

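No paired analysis was possible because each genotype has 1 list that names no replicate, and for this reason no replicate was left out. In all, 123 alternative values were obtained for 8 results, and 95 stayed within 1.5 times the count or within the 95% interval of the share or median. Many of these 95 leave out 1 chromosome and so keep most of the same peaks, and all values of that kind stayed. The 28 values that moved all came from other alternatives, and the number of chains moved in 7 of 9. The count of 95 is thus no measure of robustness. The alternatives for the agreement of neighbors under 1 kb were added after seeing the data, and this agreement has no value once peaks within 1 kb are joined. GC content and gene context, with their alternatives, were not run. Without each chromosome in turn, the Up share was 40.4 to 42.8%, the agreement of neighbors 55.6 to 57.7%, that under 1 kb 61.8 to 63.3%, the oschz1-1 share 1.22 to 1.58% and the median width 361.5 to 372 bp.

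The number of chains and members followed the rule. A gap under 2500 bp gave 87 chains with 375 peaks, a median coverage of 34.2% and an agreement of 60.8%. A gap under 10000 bp gave 469 chains with 2363 peaks, a coverage of 12.9%, a median width of 337 bp and an agreement of 52.4%. Joining peaks within 1 kb first left 77 chains with 346 peaks, a coverage of 18.4%, a width of 399.5 bp and an agreement of 49.1%. With 3 or more peaks there were 608 chains with 2164 peaks, a width of 349 bp, an agreement of 52.2% and one of 57.1% under 1 kb. With 5 or more peaks there were 76 chains with 427 peaks, of which 37.5% were in the Up list. Chaining only the wider COM1 peaks, from the median width upward, gave 54 chains, and the Up list alone gave 17. By gap class, agreement was 62.9% under 1 kb and 50.9% from 1000 to 2500 bp. The oschz1-1 share was 0.505% with at least 50% of the COM1 peak covered, and 0% by construction when such peaks were left out first. Without signal values, only presence and borders of peaks could be compared.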

Other observations

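Chains were sometimes found near each other, although the median distance from a chain to the nearest other chain was 503688 bp. In 48 of the 217 chains (22.1%), another chain was within 100 kb. The closest were 6255 bp apart on chromosome 8, where a chain of 6 peaks from 3759188 to 3774817 and a chain of 4 peaks from 3781073 to 3790885 each had 3 peaks in the Up list. On chromosome 1, the chain of 8 peaks that begins at 3026932 followed a chain of 4 peaks (3014334 to 3018486) after 8445 bp. On chromosome 6, a chain of 4 wholly in the Up list (24889136 to 24896463) was followed after 11576 bp by a chain of 4 with a single peak in the list (24908040 to 24916833). No COM1 peak lay between the chains of these 3 pairs.

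Spacing within a chain was irregular as a rule. The coefficient of variation of the distances between successive midpoints had a median of 54.3% over the chains (interquartile range 38.9 to 74.7%), and in 17 chains it was under 20%. The following chains were named after these values had been seen. The lowest value, 5.86%, was found on chromosome 7 from 26549516 to 26557947, where 4 peaks followed each other at a mean distance of 2701.8 bp. The next, 5.96%, was found in the shortest chain of all, on chromosome 4 from 17342870 to 17345025, with 4 peaks of 229, 283, 243 and 316 bp at a mean distance of 627.8 bp, all in the Up list. With only 3 distances in such chains, a low variation rests on few values. On chromosome 12, the chain of lowest coverage (8424464 to 8439801, 7.76%) had 5 peaks of 203 to 263 bp, of which 4 were in the Up list.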
